A study of Mus musculus with 19 samples.

Results

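The Notch genes examined here are 3 receptors (Notch1, Notch2 and Notch3), 4 ligands (Dll1, Dll3, Dll4 and Jag1), the glycosyltransferase gene Lfng and 2 target genes (Hes1 and Hes5). They were found by matching the Ensembl identifiers of the RNA-seq count files to these symbols in the GRCm38 gene annotation, which gave all 10 of 10 among 47069 listed genes. The study measured polyA RNA of retinal ganglion cells (RGCs), the neurons whose axons form the optic nerve, from E16.5 mouse retina, and asked what distinguishes ipsilaterally projecting RGCs (iRGCs), whose axons stay on the same side of the brain, from contralaterally projecting RGCs (cRGCs), whose axons cross the midline. Both populations are given as C57/DBA F1 embryos, with males and females pooled and the genotype labelled WT, and each has 3 libraries. The study's methods name this hybrid for the electroporated embryos and state no strain for the sequenced ones. Per those methods, every sequenced embryo carried a Sun1-GFP reporter behind a loxP-flanked stop, and GFP-positive cells were sorted. The iRGC libraries (labelled Sert) used Slc6a4-Cre, a line driven by the serotonin transporter gene, and retinas for which no removed region is stated. The cRGC libraries (labelled Brn3b) used Pou4f2-Cre, in which Cre sits in the Brn3b locus, and retinas from which the ventrotemporal part, where iRGCs lie, had been removed. Because Cre switches the reporter on permanently, GFP marks cells that have expressed the driver and their descendants. The study states that iRGCs start to be born later and are on average younger than cRGCs at E16.5. The Cre line, the retinal region, the maturity of the cells and the population cannot be told apart. Whether the replicates were separate litters was not given in the sources used here, so the spread between libraries may be partly technical. Counts on genes ranged from 28193178 to 33638083 per library.

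Notch signalling passes between neighbouring cells. A ligand of the Delta or Jagged type on the sending cell binds a Notch receptor on the receiving cell, the receptor is cut by an ADAM protease and by gamma-secretase, and its freed intracellular domain enters the nucleus, where it joins the DNA-binding protein RBPJ and turns on genes of the Hes and Hey families. Hes proteins repress proneural genes. In the embryonic retina the pathway is known for keeping progenitor cells undifferentiated, while cells that start to become neurons make the ligands. Postmitotic RGCs are known for low receptor activity.

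Before the Notch genes, the labels were checked against genes of the sorted populations. Levels are given as CPM, that is, read counts divided by the TMM-scaled library size. Log2 fold changes are iRGC over cRGC from edgeR and carry ± their standard error, with a Benjamini-Hochberg adjusted p threshold of 0.1. Slc6a4, the driver gene of the iRGC line, had 2.06, 33.4 and 116 CPM in iRGC replicates 1, 2 and 3 and 48.1, 35.4 and 30.5 CPM in the cRGC libraries. The iRGC libraries thus held both the lowest and the highest value, and the driver gene did not follow the labels (log2 fold change 0.41 ± 0.93, adjusted p = 0.768). Zic2, a transcription factor of iRGCs, had 133, 173 and 157 CPM in iRGCs and 57.0, 60.2 and 65.7 CPM in cRGCs. Its populations did not overlap, and it was higher in iRGCs (log2 fold change 1.34 ± 0.13, edgeR adjusted p = 0.0002). Ephb1, the guidance receptor of iRGC axons, overlapped between the populations (log2 fold change -0.26 ± 0.28, adjusted p = 0.499). Pou4f2 (-1.15), Pou4f1 (-2.28) and Isl2 (-2.15), transcription factors of RGCs, were lower in iRGCs on the log2 scale, with no overlap between libraries. Results on the Notch genes are therefore also given with each library left out.

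Of the 10 Notch genes, 9 were higher in iRGCs, none was lower and Jag1 did not pass the test. Across all 15941 genes tested, 23.3 percent were higher and 23.1 percent lower, 46.4 percent in all, so a call in itself was common in these data. The same 9 genes also changed by more than 1 on the log2 scale, which 12.1 percent of all genes did upwards and 11.0 percent downwards. Their 3 iRGC libraries all lay above their 3 cRGC libraries, a separation seen upwards in 27.1 percent of all genes and downwards in 28.2 percent. The median log2 fold change of the 10 genes was 2.35, against -0.00307 for all genes tested. No Notch gene was lower at an unadjusted p under 0.05 in edgeR, and DESeq2 and limma voom also called 9 higher and 0 lower. All 10 genes passed the filter on low counts. In bulk libraries, fewer cells of a type and less RNA per cell cannot be told apart, which holds for every level below.

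**Figure D1:**
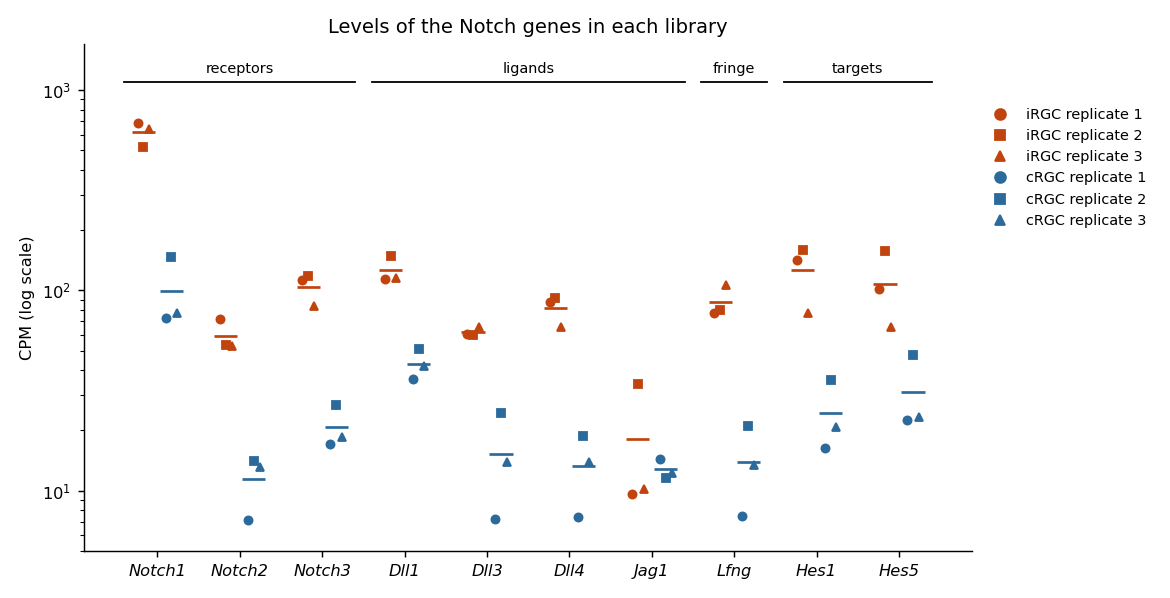
Level of each Notch gene in each library, in CPM on a log axis, with colour for the population, marker shape for the replicate and a short bar for the mean of 3 libraries. In 9 genes the iRGC points lie above the cRGC points, while the Jag1 points overlap, with iRGC replicate 2 at 34.2 CPM above the rest.

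Among the receptors, Notch1 (chromosome 2, 26457903 to 26516663, minus strand, GRCm38), the main Notch receptor of retinal progenitors, had 687, 519 and 638 CPM in the iRGC libraries and 72.9, 147 and 77.2 CPM in the cRGC libraries. It was the most abundant of the 10 genes in counts, and even its lowest iRGC library was far above the highest cRGC library, replicate 2. The log2 fold change was 2.64 ± 0.27 (edgeR adjusted p = 0.0002). Notch2 (chromosome 3, 98013527 to 98150361, plus strand) had 72.0, 53.1 and 52.8 CPM in iRGCs and 7.11, 14.0 and 13.1 CPM in cRGCs. Its libraries did not overlap, at levels far below those of Notch1, and the log2 fold change was 2.37 ± 0.27 (adjusted p = 0.0003). Notch3 (chromosome 17, 32120820 to 32166852, minus strand), a receptor known from vascular mural cells as well as from neural progenitors, had 113, 117 and 83.5 CPM in iRGCs and 17.1, 26.7 and 18.6 CPM in cRGCs. Again no iRGC library fell within the cRGC range, and the log2 fold change was 2.33 ± 0.21 (adjusted p = 0.0002). With any 1 library left out, the log2 fold change stayed between 2.45 and 3.05 for Notch1, 2.12 and 2.56 for Notch2 and 2.20 and 2.57 for Notch3. The count of Notch2 over that of Notch1 averaged 0.0966 ± 0.0121 (SD, n = 3) in iRGCs and 0.121 ± 0.0422 (SD, n = 3) in cRGCs and overlapped between them (two-sided exact permutation test, p = 0.6).

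Of the ligands, the 3 Delta genes were higher in iRGCs and Jag1 was not. Dll1 (chromosome 17, 15367354 to 15376872, minus strand), a ligand of cells entering neurogenesis, had 115, 148 and 115 CPM in iRGCs and 36.0, 51.0 and 42.0 CPM in cRGCs. The populations were apart, but the log2 fold change of 1.55 ± 0.17 (edgeR adjusted p = 0.0002) was the smallest among the 9 called genes. Dll3 (chromosome 7, 28293553 to 28302238, minus strand), a divergent Delta protein that does not activate receptors on other cells, had 60.7, 59.6 and 65.6 CPM in iRGCs and 7.23, 24.4 and 13.9 CPM in cRGCs. The iRGC libraries were close together and the cRGC libraries spread widely, with a log2 fold change of 2.03 ± 0.36 (adjusted p = 0.0022). Dll4 (chromosome 2, 119325784 to 119335962, plus strand), a ligand of both newborn retinal neurons and sprouting blood vessels, had 87.5, 91.5 and 65.9 CPM in iRGCs and 7.38, 18.7 and 13.8 CPM in cRGCs. The populations did not overlap, and its log2 fold change of 2.62 ± 0.31 (adjusted p = 0.0003) was numerically the highest of the Delta genes. With any 1 library left out, the log2 fold change ranged from 1.42 to 1.71 for Dll1, from 1.69 to 2.56 for Dll3 and from 2.32 to 2.95 for Dll4.

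Jag1 (chromosome 2, 137081456 to 137116644, minus strand), a Jagged ligand, had 9.62, 34.2 and 10.2 CPM in iRGCs and 14.5, 11.6 and 12.3 CPM in cRGCs. iRGC replicate 2 was the highest of all 6 libraries, and the other iRGC libraries were the lowest. The log2 fold change was 0.50 ± 0.46 (edgeR adjusted p = 0.434), and without iRGC replicate 2 it turned to -0.36 (adjusted p = 0.306). That library also carried the most vascular RNA. Of 14 endothelial genes listed, 7 passed the filter, several of them only through the iRGC libraries, so that their calls are not counted here. The sum over the 14 genes was 483, 788 and 437 CPM in iRGCs and 89.2, 109 and 72.0 CPM in cRGCs. The most abundant gene of the list was Kdr, which retinal progenitors are also known to express, at 366, 320 and 418 CPM in iRGCs and 83.7, 103 and 67.6 CPM in cRGCs. The defining endothelial genes showed another pattern. Pecam1, an adhesion molecule of endothelial cells, had 9.65, 53.0 and 0.284 CPM in iRGCs and 0, 0.725 and 0 CPM in cRGCs. Cdh5, the endothelial cadherin, had 15.2, 81.3 and 0.158 CPM in iRGCs and was at 0 in the cRGC libraries, as were Tie1, Eng, Sox17 and Sox18. Of 10 mural genes 5 passed the filter, Rgs5, Cspg4 and Anpep only through iRGCs. The list summed to 22.6, 160 and 25.1 CPM in iRGCs and 4.27, 5.11 and 4.49 CPM in cRGCs. Rgs5 had 3.76, 93.8 and 2.24 CPM in iRGCs and 0.0769, 0.0345 and 0.323 CPM in cRGCs, and led the list only in iRGC replicate 2. In every other library Pdgfrb was higher than Rgs5, at 14.2 and 18.0 CPM in iRGC replicates 1 and 3 and 3.65, 3.04 and 3.29 CPM in cRGCs. In iRGC replicate 3, Pecam1, Cdh5, Tie1 and Emcn were near 0, while other vascular genes, among them Cldn5 (11.8 CPM), Pdgfrb (18.0 CPM) and Rgs5 (2.24 CPM), were above every cRGC library. Notch3 and Dll4 were likewise above every cRGC library in iRGC replicate 3, and ranked the iRGC libraries in the same order as Pecam1 and Cdh5, with replicate 2 highest and replicate 3 lowest, an order that Hes1 and Hes5 also had. Flt1, Tek, Tie1, Esam, Cd34, Eng, Sox17 and the mural gene Rgs5 had this order too. Kdr, Cldn5, Egfl7, Emcn, Sox18 and the mural gene Pdgfrb did not, and the mural sum was lowest in replicate 1. The order was not particular to vascular genes. Of the markers of progenitors, dividing cells and neurogenic precursors listed below, Sfrp2, Six6, Zfp36l1, Cdk1, Ccnb1, Atoh7, Neurog2, Gadd45a and Btg2 had it, and most did not. The share of all genes with this order was not counted. The part of vascular RNA in the Jag1, Notch3 and Dll4 values was not tested.

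**Figure D2:**
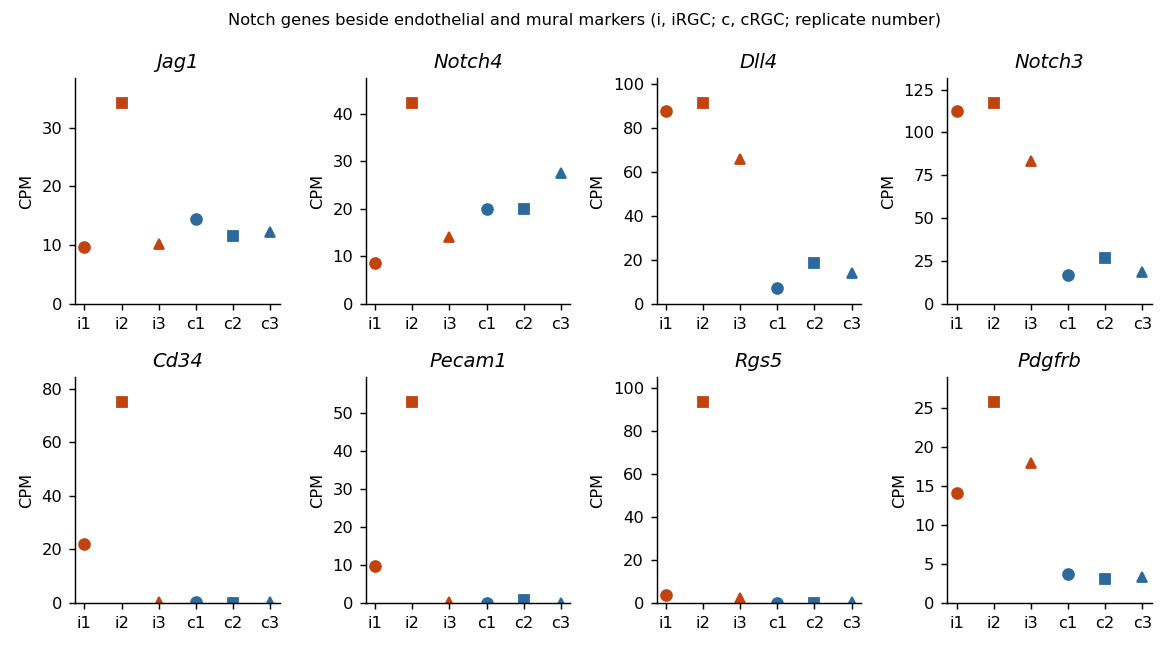
Levels of Jag1, Notch4, Dll4 and Notch3 (top row) and of the endothelial genes Cd34 and Pecam1 and the mural genes Rgs5 and Pdgfrb (bottom row), in CPM on linear axes from 0, with 1 point per library (i for iRGC, c for cRGC, then the replicate number). iRGC replicate 2 is the highest library for Jag1 (34.2 CPM), Notch4 (42.3 CPM), Pecam1 (53.0 CPM) and Rgs5 (93.8 CPM).

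Lfng (chromosome 5, 140607320 to 140615545, plus strand) encodes lunatic fringe, a Golgi enzyme that adds sugars to Notch and shifts its response towards Delta ligands. It had 76.7, 79.4 and 106 CPM in iRGCs and 7.50, 21.0 and 13.4 CPM in cRGCs. The populations were widely apart, and the log2 fold change of 2.65 ± 0.33 (edgeR adjusted p = 0.0004) was the highest of the 10 genes, although close to those of Notch1 and Dll4. The target Hes1 (chromosome 16, 30064384 to 30067796, plus strand), a repressor that holds progenitors back from neurogenesis, had 143, 159 and 77.5 CPM in iRGCs and 16.4, 35.9 and 20.7 CPM in cRGCs. iRGC replicate 3 was the lowest of its population but still above all cRGC libraries, with a log2 fold change of 2.38 ± 0.34 (adjusted p = 0.0008). Hes5 (chromosome 4, 154960923 to 154962371, plus strand), a target that depends closely on Notch activity, had 102, 157 and 65.6 CPM in iRGCs and 22.6, 47.6 and 23.4 CPM in cRGCs. The gap between the populations was narrower than for Hes1, and the log2 fold change was 1.79 ± 0.37 (adjusted p = 0.0045). Left out in turn, single libraries moved the log2 fold change from 2.33 to 3.07 for Lfng, from 2.16 to 2.79 for Hes1 and from 1.42 to 2.25 for Hes5.

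The promoters of Hes5 and Lfng are shown because they hold the RBPJ binding letters GTGGGAA, read on both strands, within 250 bases before to 50 after the annotated start. The sequences are from RefSeq on GRCm38.p6, plus strand, chr4:154960673-154960922 for Hes5 and chr5:140607091-140607319 for Lfng, and end before the first base of the annotated gene. Capitals mark the RBPJ letters or their reverse complement.
Hes5: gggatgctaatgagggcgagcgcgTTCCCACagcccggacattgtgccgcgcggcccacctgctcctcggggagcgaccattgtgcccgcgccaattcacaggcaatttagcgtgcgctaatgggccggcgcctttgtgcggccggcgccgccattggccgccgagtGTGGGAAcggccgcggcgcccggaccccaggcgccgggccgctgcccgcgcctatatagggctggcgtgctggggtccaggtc
Lfng: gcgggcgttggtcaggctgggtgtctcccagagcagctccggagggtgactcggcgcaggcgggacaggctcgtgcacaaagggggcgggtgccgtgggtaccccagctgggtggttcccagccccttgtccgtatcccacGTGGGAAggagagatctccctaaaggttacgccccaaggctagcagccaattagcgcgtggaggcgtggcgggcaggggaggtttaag
Hes5 held a match on the minus strand 226 to 220 bases before its RefSeq start and another on the plus strand 83 to 77 bases before it, and Lfng held a match on the plus strand 109 to 103 bases before it. RefSeq windows were matched for 9 of the 10 genes, Hes1 being the exception, and 2 of their 10 windows held the motif, against 6.38 percent of 32851 promoter windows of the same length. The N box, CACNAG on either strand, a letter pattern bound by Hes proteins, was in 6 of the 10 windows, against 42.5 percent of all windows. A match describes the letters only.

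The proportion of the targets was compared next. The count of Hes5 over that of Hes1 was 0.715, 0.986 and 0.847 in the iRGC libraries and 1.37, 1.33 and 1.13 in the cRGC libraries. All cRGC libraries were above all iRGC libraries, with means of 0.849 ± 0.135 and 1.28 ± 0.130 (SD, n = 3 each). The two-sided exact permutation test gave p = 0.1, the smallest that 3 against 3 libraries allow, and 0.267 after Benjamini-Hochberg adjustment over 4 ratios. Dll3 over Dll1 was 0.501 ± 0.0870 in iRGCs and 0.336 ± 0.138 in cRGCs (SD, n = 3 each, exact permutation p = 0.2, adjusted 0.267). Jag1 over Dll1 was 0.135 ± 0.0838 in iRGCs and 0.307 ± 0.0885 in cRGCs (SD, n = 3 each, exact permutation p = 0.2, adjusted 0.267). Libraries of the populations overlapped for both ligand ratios, and no ratio passed the threshold. For Jag1 over Dll1 the overlap came from iRGC replicate 2 alone, at 0.232 against 0.227 in the lowest cRGC library. iRGC replicates 1 and 3 were at 0.0840 and 0.0889.

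Divided by exon length, so that genes can be set side by side, the targets stood highest in both populations. In iRGCs the mean levels per kilobase were 79.3 CPM for Hes5, 62.0 for Hes1, 43.2 for Notch1, 34.9 for Lfng and 29.8 for Dll1, and each overlapped its neighbour in this order. Dll1 was apart from the next gene in every library, Dll3 at 21.7 CPM per kilobase, which overlapped Dll4 at 21.2. Notch3 (12.9) was apart from Dll4 above it and from Notch2 (5.50) below it, and Notch2 overlapped Jag1 (3.10). This last overlap came from iRGC replicate 2 alone, where Jag1 was at 5.88, against 1.65 and 1.76 in iRGC replicates 1 and 3. The cRGC order was Hes5 at 22.9 CPM per kilobase, Hes1 at 11.9, Dll1 at 10.2, Notch1 at 6.95, Lfng at 5.57, Dll3 at 5.32, Dll4 at 3.45, Notch3 at 2.57, Jag1 at 2.19 and Notch2 at 1.06. Here neighbours overlapped all the way down to Jag1, and Jag1 was apart from Notch2. Dll1 thus ranked below Notch1 in iRGCs, where their libraries were apart, and above it in cRGCs, where their ranges overlapped. Within each cRGC library, Dll1 was above Notch1, at 8.53, 12.1 and 9.95 against 5.12, 10.3 and 5.42 CPM per kilobase. Despite overlapping ranges, Hes5 was also above Hes1 within every library, and Notch1 above Lfng within every iRGC library.

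**Figure D3:**
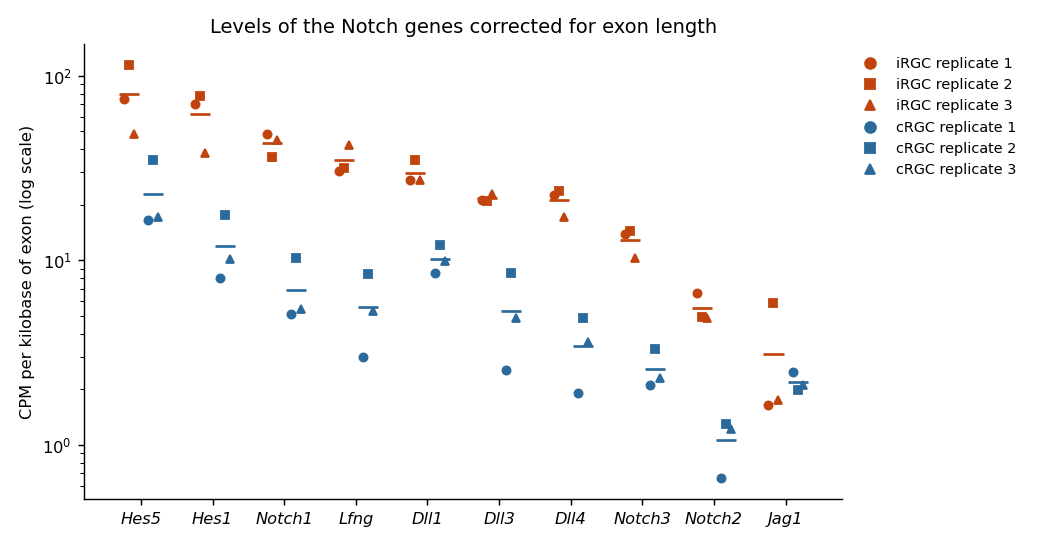
Mean level per kilobase of exon for each Notch gene in iRGCs and cRGCs, in CPM per kilobase on a log axis, as short bars, with points for the single libraries coloured by population. Hes5 is highest in both populations (79.3 and 22.9), while Jag1 is lowest in iRGCs (3.10) and Notch2 lowest in cRGCs (1.06).

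The 9 called Notch genes moved alongside markers of dividing and undifferentiated cells. The counts of called markers stand beside 23.3 percent of all genes tested that were higher and 23.1 percent that were lower. Of 16 retinal progenitor markers, 14 were higher in iRGCs, 1 was lower and 1 did not pass the test (median log2 fold change 2.42). Their sum was 8627, 7986 and 6821 CPM in iRGCs and 1553, 2582 and 2265 CPM in cRGCs, with Ccnd1, the D-type cyclin of progenitors, the most abundant. For this list and the next ones, the leading gene is the highest on average over all libraries, not in each of them. All 12 markers of proliferating cells were higher, summing to 3739, 3121 and 2941 CPM in iRGCs and 354, 861 and 532 CPM in cRGCs, with the topoisomerase gene Top2a leading. All 10 neurogenic precursor markers were also higher, at 1507, 1599 and 1411 CPM in iRGCs and 263, 471 and 402 CPM in cRGCs, led by Btg2, an antiproliferative gene of cells in their last divisions. In contrast, 13 of 14 RGC markers were lower in iRGCs and none was higher (median -1.93). They summed to 2639, 3643 and 5648 CPM in iRGCs and 14510, 13053 and 16107 CPM in cRGCs. On average they were led by the neurofilament gene Nefm, although Gap43 was higher in cRGC replicates 1 and 2. Stmn2 was above Nefm in iRGC replicates 1 and 2 and in cRGC replicate 2, and Nefl in replicate 2 of both populations. No marker on these 4 lists was at 0 in any library. The study reports Pou4f1, Pou4f2 and Sncg among the genes of cRGCs, and Lhx2, Sox2 and Sox9 among those of iRGCs. These lists thus partly hold genes by which the study itself tells the populations apart. RGC markers were present in the iRGC libraries at a lower level, next to abundant RNA of progenitor markers. cRGC replicate 2 was the highest cRGC library for the 9 called Notch genes and for the summed progenitor, proliferating and neurogenic markers. The part of progenitor RNA in the Notch differences was not tested.

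**Figure D4:**
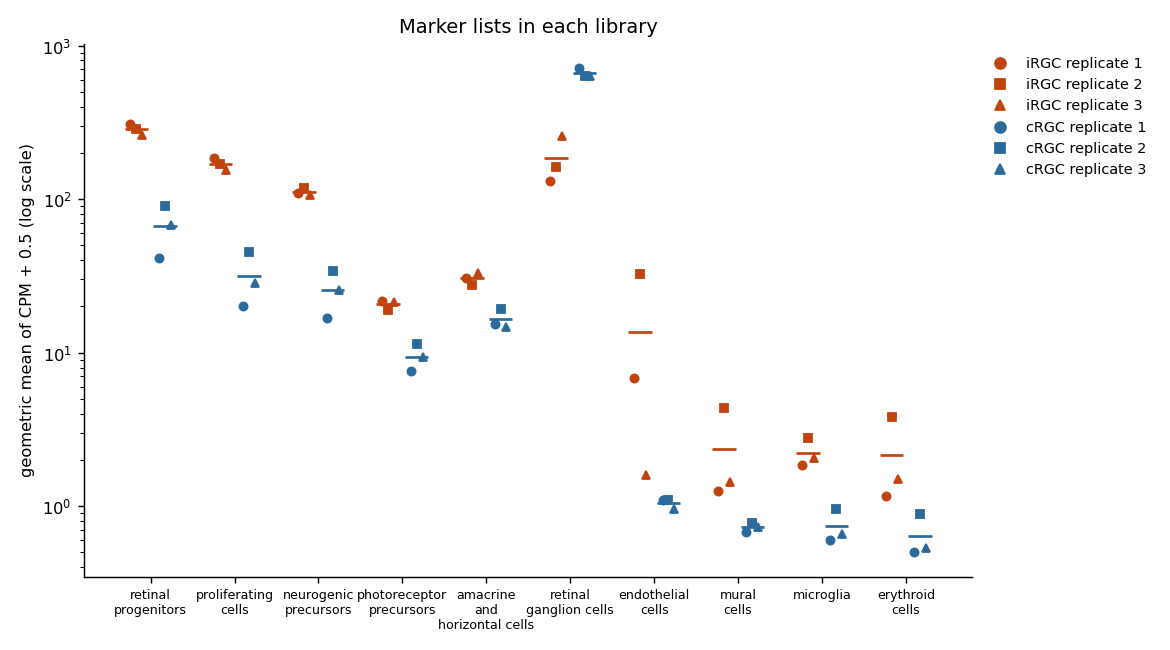
Level of each marker list in each library, as the geometric mean of CPM + 0.5 on a log axis, with colour for the population, marker shape for the replicate and a short bar for the mean of 3 libraries. Progenitor markers were at 308, 288 and 262 in iRGCs and 41.1, 90.8 and 67.9 in cRGCs, and RGC markers at 132, 162 and 259 in iRGCs and 713, 635 and 635 in cRGCs.

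Relative to the geometric mean of the progenitor markers in the same library, the Notch genes were also described without a test. On this scale 81.7 percent of all genes tested were lower in iRGCs without overlap and 1.96 percent were higher, since the progenitor markers themselves differ. Dll1 was at 0.441 ± 0.0714 of the progenitor mean in iRGCs and 0.686 ± 0.167 in cRGCs (SD, n = 3 each), lower in iRGCs without overlap, as was Jag1 at 0.0631 ± 0.0486 and 0.220 ± 0.117. The iRGC mean of Jag1 was raised by replicate 2, at 0.119 against 0.0312 and 0.0391 in replicates 1 and 3. Replicate 2 was also its highest iRGC library against each list below. Notch1 was at 2.15 ± 0.319 in iRGCs and 1.51 ± 0.332 in cRGCs, Dll4 at 0.284 ± 0.0333 and 0.196 ± 0.0145, and Lfng at 0.310 ± 0.0837 and 0.204 ± 0.0252, all higher in iRGCs without overlap. Notch2, Notch3, Dll3, Hes1 and Hes5 overlapped between the populations on this scale. Set against the proliferation markers instead (84.6 percent of all genes lower and 0.859 percent higher), Dll1 and Jag1 were still lower without overlap, while Notch1, Dll4 and Lfng overlapped. Set against the neurogenic precursor markers (81.8 percent lower and 1.73 percent higher), Dll1 and Jag1 were again lower and Notch1, Dll4 and Lfng again higher, all without overlap. Set against the RGC markers, all 10 genes were higher in iRGCs without overlap, Dll1 at 0.742 against 0.0657 and Jag1 at 0.108 against 0.0193, as were 78.9 percent of all genes. The direction for Dll1 and Jag1 thus turned with the list.

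For each Notch gene, the 3 genes with the nearest profile over the 6 libraries were found. Distances are on log2 CPM centred on each gene's mean, among 11506 genes with at least 5 CPM on average. Nearest to Notch1 were Slc1a3, a glutamate transporter (distance 0.171), Lhx2, an eye-field transcription factor (0.194), and the cadherin gene Cdh20 (0.229). Lfng lay nearest to Sox2, a progenitor transcription factor (0.177), followed by E2f8 (0.342) and Mcm3 (0.356), genes of the cell cycle and DNA replication. Dll4 lay nearest to Tns3 (0.184), the mitotic kinase gene Cdk1 (0.226) and Clspn (0.255). Notch2 was followed by Mavs (0.0795), Ptf1a (0.226), a transcription factor of amacrine and horizontal precursors, and Cenpn (0.251), and Notch3 by Fanca (0.184), Grin2c (0.245) and Rpa2 (0.267). For Dll1 they were Tctn2 (0.192), Cmtm6 (0.243) and Ppat (0.264), and for Dll3 they were the cell cycle inhibitor gene Cdkn2c (0.305), Erf (0.313) and Gm4792 (0.325). The targets had looser neighbours, Sox9 (0.436), a progenitor transcription factor, Psrc1 (0.463) and Fanca (0.470) for Hes1, and Fbxo48 (0.481), the proneural gene Neurog2 (0.489) and Dleu2 (0.541) for Hes5. Jag1 had the most distant ones, the immediate early gene Dusp1 (0.557), Klhl4 (0.595) and the integrin gene Itga4 (0.683).

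Other genes of the pathway were called in both directions. Of 56 other Notch pathway genes, 54 were tested, of which 19 were higher in iRGCs, 13 lower and 22 did not pass (median log2 fold change 0.05), against 23.3 percent higher and 23.1 percent lower among all genes tested. The 5 other receptors and ligands included 3 lower genes and no higher gene. Jag2, a Jagged ligand, had 21.0, 35.1 and 37.6 CPM in iRGCs and 103, 88.2 and 87.7 CPM in cRGCs. It ran opposite to the Delta genes, with every cRGC library above every iRGC library and a log2 fold change of -1.57 ± 0.21 (edgeR adjusted p = 0.0006). Dner, a Delta- and Notch-like transmembrane protein of neurons, had 46.1, 88.3 and 150 CPM in iRGCs and 364, 368 and 363 CPM in cRGCs. The cRGC libraries were nearly alike, the iRGC libraries spread, and the log2 fold change was -1.94 ± 0.35 (adjusted p = 0.0022). Dlk2, a Delta-like protein without the usual receptor-binding domain, was lower too (-2.03 ± 0.65, adjusted p = 0.0335). Without iRGC replicate 2 its log2 fold change was similar, at -1.85, but missed the threshold (adjusted p = 0.109), and without iRGC replicate 3 it was -3.09. Notch4, the endothelial receptor, had 8.65, 42.3 and 14.0 CPM in iRGCs and 20.0, 19.9 and 27.6 CPM in cRGCs. As for Jag1, iRGC replicate 2 was the highest library, and the log2 fold change of -0.06 ± 0.50 (adjusted p = 0.945) became -0.99 (adjusted p = 0.0345) without it.

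The counts by role below are small and stand beside the 46.4 percent of all genes that were called in either direction, so a mix of calls is not particular to these roles. Among 4 glycosylation genes, 2 were higher and 1 lower, and the other fringes differed in direction, with Mfng at a log2 fold change of 1.02 ± 0.22 (edgeR adjusted p = 0.0059) and Rfng at -0.80 ± 0.13 (adjusted p = 0.0012). Of 4 genes for ligand endocytosis, the ubiquitin ligase genes Mib1 (0.38) and Neurl1b (-0.85) passed in opposite directions on the log2 scale. Among 10 genes of receptor proteolysis, 2 were higher and 3 lower. The shedding proteases parted, with Adam17 at 60.0 to 70.3 CPM in iRGCs and 15.5 to 30.4 CPM in cRGCs (log2 fold change 1.46 ± 0.23, adjusted p = 0.0012) and Adam10 at 232 to 289 CPM in iRGCs and 460 to 763 CPM in cRGCs (-1.08 ± 0.20, adjusted p = 0.0029). Of the 9 genes of the nuclear complex, 3 were higher and 1 lower. Rbpj itself had 91.5, 101 and 104 CPM in iRGCs and 51.7, 63.9 and 77.8 CPM in cRGCs, a smaller difference than for the receptors (log2 fold change 0.62 ± 0.16, adjusted p = 0.0123). The coactivators Maml1 (1.33) and Maml3 (-0.51) went opposite ways. Of 7 corepressors, Ctbp2 was higher (0.75) and 2 were lower. Of 9 genes for inhibition and turnover, 4 were higher, led by the ubiquitin ligase gene Dtx4 (1.07), and 2 were lower, with Numbl, which encodes a Numb-like inhibitor, at -0.89.

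By comparison, all 6 tested of 8 further target and Hes family genes were higher in iRGCs (median log2 fold change 2.01), and Hes3 and Hes7 were too low to test. Nrarp, a target that feeds back on the Notch complex, had 134, 122 and 118 CPM in iRGCs and 28.7, 45.5 and 30.6 CPM in cRGCs. Its populations were far apart (log2 fold change 1.84 ± 0.18, edgeR adjusted p = 0.0002). Hes6, a family member that opposes Hes1 and is made by differentiating neurons, had 277, 310 and 293 CPM in iRGCs and 78.6, 126 and 109 CPM in cRGCs. Its lowest iRGC library was well above its highest cRGC library (log2 fold change 1.49 ± 0.17, adjusted p = 0.0003). Hey1, a related repressor, had 59.8, 49.8 and 34.7 CPM in iRGCs and 8.61, 18.6 and 22.3 CPM in cRGCs, without overlap (log2 fold change 1.54 ± 0.34, adjusted p = 0.0064). Hes2 was low but apart, at 9.06 to 10.1 CPM in iRGCs and 0.577 to 2.31 CPM in cRGCs (log2 fold change 2.68 ± 0.50, adjusted p = 0.0027).

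Some of the Notch genes share exon sequence with another gene, on the opposite strand except for Notch2, and the strand setting of the counting was not given in the sources used here. The shared part was 31.8 percent of exon bases for Hes5, 20.5 percent for Dll1, 9.76 percent for Notch1, 6.03 percent for Notch3, 5.56 percent for Dll4 and 5.02 percent for Notch2, and 0 percent for Dll3, Jag1, Lfng and Hes1. The neighbour of Dll1, A930024N18Rik, had 87, 138 and 132 counts in iRGCs and 350, 389 and 336 counts in cRGCs, opposite to Dll1 with its 3560, 4786 and 3654 and 936, 1479 and 1301 counts. The neighbour of Dll4, Gm14207, ran the same way as Dll4, with 175, 180 and 193 counts in iRGCs and 20, 62 and 33 in cRGCs (log2 fold change 2.12, edgeR adjusted p = 0.0105), against 2722, 2960 and 2091 and 192, 541 and 429 counts for Dll4. At Notch1, 0610009E02Rik had 61, 50 and 24 counts in iRGCs and 20, 9 and 7 in cRGCs. The neighbour of Hes5, Gm20421, had at most 23 counts in a library. Nrarp shared 79.4 percent of its exon bases with Gm38287, which had at most 18 counts.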

How the data were processed

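The authors aligned polyA reads with HISAT2 2.1.0 to mm10 and deposited raw counts per Ensembl gene from HTSeq 0.11.1 for each of the 6 RNA-seq libraries; they tested with DESeq2 1.26.0. The 13 ATAC-seq samples were not analysed here. HTSeq tallies that name no gene (43.1 to 47.3 percent) were left out. The deposited counts were tested here with edgeR 4.0.16 (filterByExpr, TMM, quasi-likelihood F-test, iRGC against cRGC, Benjamini-Hochberg over 15941 genes, threshold 0.1), and SE is the absolute log2 fold change over the root of F. DESeq2 1.42.0, limma 3.58.1 (voom), other size factors, other filters, a replicate block and each library left out were the alternatives. The tests were checked on simulated data, but no result of that check is given here. Depth of 28193178 to 33638083 counts puts 3 counts at 0.0927 to 0.115 CPM. Besides the 10 Notch genes, pathway genes were named as the most changed called gene per role and direction at 5 CPM or more, plus Notch4, Jag2, Dner, Mfng, Rfng, Rbpj, Hes6, Hey1 and Nrarp. Marker lists were represented by their most abundant gene on average over all libraries (Cd34 and Pdgfrb were added), and neighbours were the 3 nearest profiles. Pecam1, Cdh5, Tie1, Eng, Emcn, Cldn5, Sox17, Sox18, Tek, Esam, Flt1, Egfl7, Cspg4, Anpep, Abcc9, Myh11, Higd1b, Rxrg, Gap43 and the ratios to marker lists were chosen after their values were seen. The same holds for Sfrp2, Six6, Zfp36l1, Ccnb1, Atoh7, Gadd45a, Sncg, Stmn2 and Nefl. The members and lists were chosen with earlier results of these data known. Promoter sequences are from RefSeq (GRCm38.p6), 250 bases before to 50 after each start, 300 in all. Single results for some listed genes are not reported here.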

Additional observations from a re-analysis of the deposited data

How the results depend on the processing

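The same 9 Notch genes were called higher, and none lower, under all 14 alternatives, including each left-out library. With single libraries left out, the log2 fold change of Jag1 ranged from -0.36 (without iRGC replicate 2, the only reversal) to 0.80, and that of Notch4 from -0.99 to 0.32. Notch4, -0.06 in the reported test, turned to 0.16 with library totals in place of TMM, 0.32 without iRGC replicate 1, 0.17 without iRGC replicate 3 and 0.13 without cRGC replicate 3. With library totals the median of all genes moved to 0.20, the calls to 5100 higher and 2842 lower (3707 and 3688 with TMM), and the pathway calls to 24 and 10 (19 and 13), with Dll3 at 23.3 CPM per kilobase in iRGCs. Asking for a log2 fold change over 1 left 1930 higher and 1758 lower genes and 10 and 4 pathway genes. Maml3 missed the edgeR threshold with library totals (adjusted p = 0.125). The causes were not tested. Same-numbered libraries did not deviate together across genes (r of -0.0142, -0.0446 and -0.0669), which cannot exclude a pairing that touches fewer genes. Replicate 2 was the highest library in both populations for Notch3, Dll1, Dll4, Hes1 and Hes5, but not for the other Notch genes. Whether the numbers mark a shared batch is not known. A replicate block gave 9 Notch genes, 19 and 13 pathway genes, and 3316 higher and 3435 lower in all. With 3 libraries a side, a permutation test cannot go below p = 0.1.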

Other observations

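Markers of other cell types were also measured. Among all genes tested, 23.3 percent were higher in iRGCs and 23.1 percent lower. Of 8 photoreceptor precursor markers, 6 were tested, 5 were higher in iRGCs and 1, Rxrg, was lower. The list summed to 807, 641 and 626 CPM in iRGCs and 170, 256 and 206 CPM in cRGCs. Otx2, a photoreceptor and bipolar fate factor, led in iRGCs. In cRGCs Rxrg had the highest mean, 67.8 CPM against 45.3 CPM for Otx2. Of 10 amacrine and horizontal cell markers, 6 were higher and 4 did not pass, with sums of 548, 524 and 574 CPM in iRGCs and 360, 394 and 489 CPM in cRGCs. The most abundant gene of this list, Onecut2, was among those that did not pass, with a log2 fold change of -0.56 (edgeR adjusted p = 0.117). Of the low lists of 8 microglia and 8 erythroid markers, 7 and 4 genes passed the filter, some only through the iRGC libraries, so that their calls are not counted here. Microglia markers had sums of 18.0, 26.1 and 16.2 CPM in iRGCs, led there by Csf1r, and 1.11, 4.24 and 1.39 CPM in cRGCs. The erythroid sum was 12.2, 92.7 and 15.3 CPM in iRGCs, led there by the globin gene Hbb-bs, and 0, 5.18 and 0.290 CPM in cRGCs. As with the endothelial and mural genes, the erythroid sum was highest in iRGC replicate 2.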
